A study of Caenorhabditis elegans with 2 samples.

Results

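The chromosome IV piRNA clusters of Caenorhabditis elegans are 2 long stretches in which most of the animal's piRNA genes lie, and the F57A8.1 peaks inside them are described here. A peak belonged to the clusters when its summit lay on chromosome IV between 4.5 and 7.0 Mb (the left cluster) or between 13.5 and 17.2 Mb (the right cluster) of the ce11 build. By this rule 1025 of the 30000 peaks of the authors' pooled list were members, 632 in the left cluster and 393 in the right cluster. Another 3151 peaks lay on the rest of chromosome IV. The same bounds took 1168 of the 30000 peaks called in replicate 1 and 1106 of the 30000 called in replicate 2.

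The peaks come from chromatin immunoprecipitation followed by sequencing (ChIP-seq) with an antibody against green fluorescent protein, carried out on whole worms of strain OP757. This strain carries unc-119(tm4063) and the transgene wgls757, in which F57A8.1 is joined at its C terminus to TY1, EGFP and 3xFLAG and which also supplies unc-119(+). Both samples are young adults of pooled sexes at 65 hours, grown from larvae starved at the L1 stage after bleaching, and they are biological replicates 1 and 2 of a single group. All cell types of the animal are mixed in these samples, the germline and the soma included. The comparisons below are therefore between regions of chromosome IV within each list, and no test over the 2 samples was made: the values of each replicate are given instead.

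piRNAs of worms, also called 21U-RNAs, are short RNAs of 21 bases, mostly beginning with U, that guide the Argonaute protein PRG-1 in the germline, where they silence transposons and other foreign transcripts. Most are made from tiny genes of their own, each transcribed separately by RNA polymerase II. Many of these genes carry the Ruby motif, with the core sequence CTGTTTCA, a short distance upstream of the mature RNA. A complex of SNPC-4, PRDE-1, TOFU-4 and TOFU-5 binds upstream of them, and SNPC-4 also acts at other genes for short RNAs, such as those for small nuclear RNAs.

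The annotation held 15363 piRNA genes on the 6 chromosomes, of which 14714 were on chromosome IV. The left cluster had 2816 (1126 per Mb), the right cluster 11388 (3078 per Mb) and the rest of chromosome IV 510 (45.2 per Mb). The following stretches show what such genes look like at the members with the highest signal among those within 250 bp of a piRNA gene and of no other short RNA gene, 3 from the left cluster and then 3 from the right cluster. Each gives the 60 bases upstream and the 21 bases of the mature RNA, read in the direction of transcription from the RefSeq sequence of WBcel235, which is the sequence of ce11. Capitals mark the mature 21U-RNA and any exact CTGTTTCA.
21ur-6059 (chrIV:5986381-5986461, minus strand): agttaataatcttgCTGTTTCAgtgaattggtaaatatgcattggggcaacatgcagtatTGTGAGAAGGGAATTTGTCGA
21ur-7827 (chrIV:6126002-6126082, plus strand): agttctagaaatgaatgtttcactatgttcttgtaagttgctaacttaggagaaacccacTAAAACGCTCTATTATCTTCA
21ur-13214 (chrIV:5760483-5760563, minus strand): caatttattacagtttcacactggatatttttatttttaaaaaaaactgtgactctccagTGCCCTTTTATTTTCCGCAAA
21ur-1572 (chrIV:14764378-14764458, plus strand): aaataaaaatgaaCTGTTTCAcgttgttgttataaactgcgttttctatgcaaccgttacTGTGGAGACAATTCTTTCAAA
21ur-4709 (chrIV:16659725-16659805, minus strand): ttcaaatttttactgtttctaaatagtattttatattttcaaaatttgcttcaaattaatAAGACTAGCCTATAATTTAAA
21ur-2646 (chrIV:14554892-14554972, minus strand): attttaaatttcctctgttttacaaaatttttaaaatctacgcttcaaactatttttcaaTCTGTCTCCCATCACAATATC
The exact motif stood upstream of 21ur-6059 and 21ur-1572. It was not found in the 60 bases before the other 4. Over both clusters it stood in that stretch at 4944 of 14204 piRNA genes (34.8%).

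Members were sparse in the right cluster and close to the usual density in the left one. In the pooled list the right cluster held 106.2 summits per Mb (95% exact Poisson interval 96.0 to 117.3), the left cluster 252.8 (233.5 to 273.3) and the rest of chromosome IV 279.0 (269.3 to 288.9). The right cluster thus had 0.381 times the density of the rest (interval 0.342 to 0.423) and the left cluster 0.906 times (0.831 to 0.987). Both clusters together had 165.3 summits per Mb, 0.593 times the rest. They make up 35.4% of the chromosome's length and held 24.6% of its summits. These intervals, and the others given here, cover counting error only.

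Each replicate list gave the same order. Replicate 1 had 139.7 summits per Mb in the right cluster, 260.4 in the left cluster and 281.2 in the rest. Replicate 2 had 124.3 in the right cluster, 258.4 in the left cluster and 278.5 in the rest. The ratio of the right cluster to the rest was 0.497 in replicate 1 and 0.447 in replicate 2, both above the pooled ratio. For the left cluster the ratios were 0.926 (0.850 to 1.01) and 0.928 (0.851 to 1.01), intervals that include 1, so a difference from the rest was not detectable in either replicate.

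**Figure D1:**
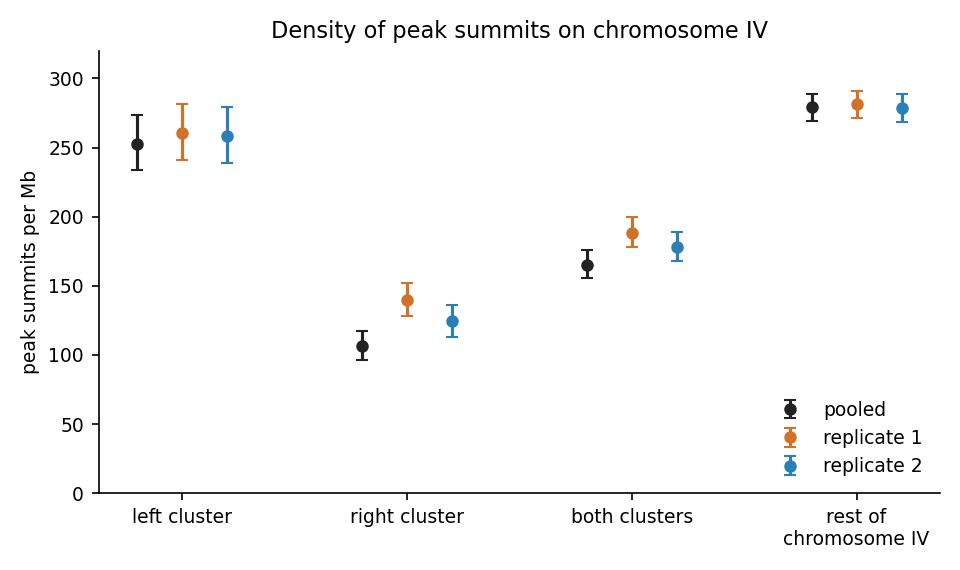
Peak summits per Mb (y axis) in the left cluster, the right cluster, both clusters and the rest of chromosome IV (x axis), for the pooled list and each replicate list; bars are 95% exact Poisson intervals. The right cluster lies between 106.2 and 139.7 summits per Mb in the 3 lists, against 278.5 to 281.2 in the rest.

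The sparse stretch filled the right cluster from end to end. In steps of 0.5 Mb, its 7 full steps held between 82 and 128 pooled summits per Mb, with a median of 98. In the rest, 21 full steps held between 184 and 352, with a median of 282. The step from 7.0 to 7.5 Mb, which starts at the left cluster's bound, was left out of these 21 and held 338. The ranges did not overlap in the pooled list. They did not overlap in replicate 2 either, at 102 to 134 and 180 to 370 summits per Mb, but in replicate 1 the highest step of the right cluster (196) was above the lowest of the rest (184). The density changed at the bounds of the right cluster: the first 0.5 Mb inside it had 128 summits per Mb and 1116 piRNA genes, and the 0.5 Mb before it had 282 summits per Mb and 11 piRNA genes. Past its far end, the last 0.294 Mb of the chromosome had 275.7 summits per Mb and 175 piRNA genes. At the outer bound of the left cluster the pooled list had 304 summits per Mb in the first 0.5 Mb inside and 348 in the 0.5 Mb before, replicate 1 had 298 inside and 360 before, and replicate 2 had 324 inside and 370 before. At its inner bound the lists differed in direction. The last 0.5 Mb inside and the 0.5 Mb after it held 252 and 338 in the pooled list, 274 and 266 in replicate 1, and 248 and 288 in replicate 2.

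The same fraction of each other chromosome's length as the right cluster occupies on chromosome IV held 228.1 to 364.2 pooled summits per Mb, with the lowest value on chromosome III and the highest on X. The right cluster, at 106.2, was below all 5 of these. The longest stretch without a pooled summit was also in the right cluster. It ran for 140313 bp, from 14622433 to 14762746, and held 573 piRNA genes and the 5′ ends of 15 protein-coding genes, against longest gaps of 68683 bp in the left cluster and 74578 bp in the rest. Summits of the replicate lists fell inside that stretch, since the longest gap of the right cluster was 108562 bp in replicate 1 and 92887 bp in replicate 2, at other places.

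Members lay away from piRNA genes. Of the 1025 members, 196 (19.1%, 95% Wilson interval 16.8 to 21.6%) had their summit within 250 bp of an annotated piRNA gene, while 50.9% of all bases of the clusters lay that close. That is 62.1 summits per Mb (53.7 to 71.4) near piRNA genes and 272.4 (254.1 to 291.6) farther away, a ratio of 0.228 (0.194 to 0.267). In the left cluster 89 of 632 members (14.1%) were near a piRNA gene, against 34.6% of its bases, and in the right cluster 107 of 393 (27.2%), against 62.0% of its bases. The near-to-away ratio was 0.311 (0.245 to 0.389) in the left cluster and 0.230 (0.182 to 0.288) in the right cluster. In the replicates it was less extreme, 0.339 (0.297 to 0.387) in replicate 1 with 304 near summits and 0.289 (0.2502 to 0.333) in replicate 2 with 255.

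The few piRNA genes on the rest of chromosome IV had few summits near them too. On the rest of chromosome IV, 28 of 3151 summits (0.889%) were within 250 bp of a piRNA gene, against 1.90% of its bases, a ratio of near to away of 0.463 (0.307 to 0.670). It was 0.475 in replicate 1 and 0.665 in replicate 2. Inside the clusters, bases farther than 250 bp from a piRNA gene had 0.976 times the density of the whole rest of the chromosome (0.903 to 1.05), but the clusters differed in this. The ratio was 1.19 (1.08 to 1.303) in the left cluster and 0.728 (0.643 to 0.822) in the right cluster. In replicate 1 these were 1.14 (1.04 to 1.25) and 0.857 (0.764 to 0.958). In replicate 2 they were 1.18 (1.07 to 1.29) and 0.801 (0.711 to 0.900).

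The density of summits was higher at greater distances from the nearest piRNA gene. Over both clusters the pooled list had 30.1 summits per Mb inside piRNA genes, 29.4 up to 50 bp away, 45.0 from 50 to 100 bp and 106.7 from 100 to 250 bp. It then had 216.2 from 250 to 500 bp, 187.9 from 500 to 1000 bp, 245.5 from 1000 to 2000 bp, 338.2 from 2000 to 5000 bp and 343.2 beyond 5000 bp. Close to the genes the replicate lists had higher densities than the pooled one. Replicate 1 had 38.7 inside piRNA genes, 75.9 up to 50 bp away and 80.8 from 50 to 100 bp, and replicate 2 had 47.3, 50.6 and 64.9. In each of the 3 lists these were the lowest densities of the profile. Only 7 members (0.683%) had their summit inside a piRNA gene, where 3.75% of the bases lie. The median distance from summit to piRNA gene was 1569 bp, against 239 bp over all bases of the clusters, and it was shorter in replicate 1 (984 bp) and replicate 2 (1260 bp). In the pooled list it was 2290 and 572 bp in the left cluster and 752 and 145 bp in the right cluster. On the rest of chromosome IV the summits had a median distance of 17460 bp and all bases 18120 bp.

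**Figure D2:**
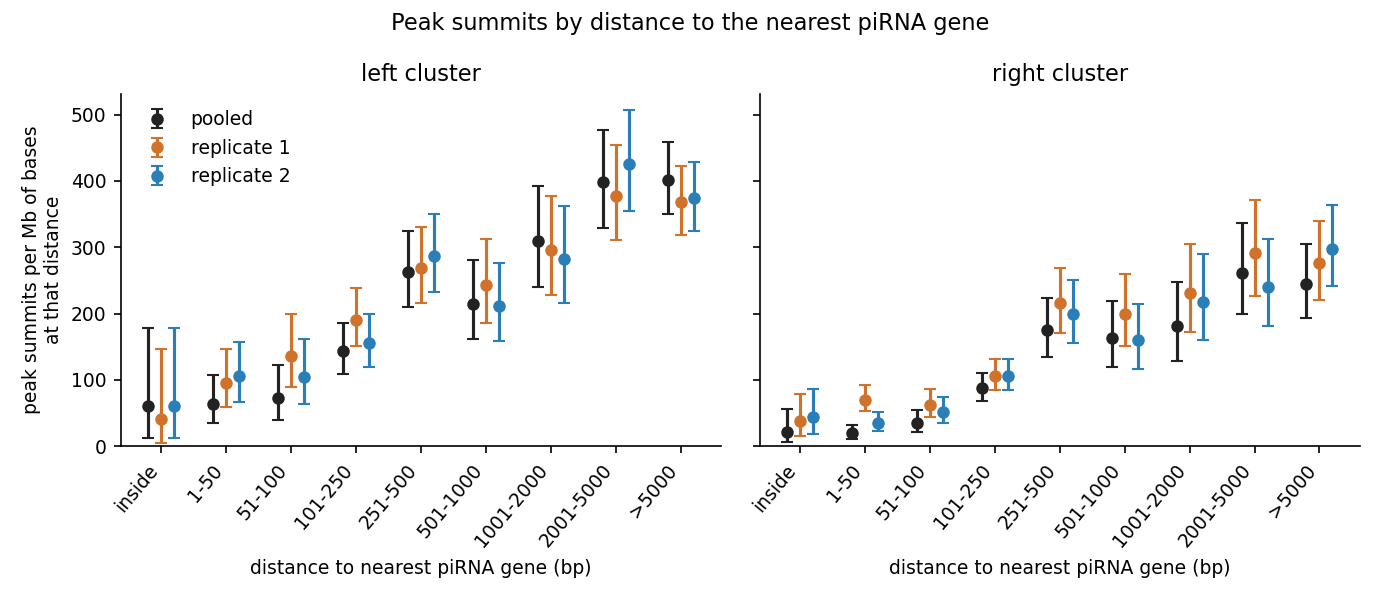
Peak summits per Mb of bases at each distance from the nearest annotated piRNA gene (y axis), by distance in bp (x axis), in the left cluster and the right cluster; points are the pooled list and each replicate list and bars are 95% exact Poisson intervals. In the pooled list the right cluster has 19.5 summits per Mb within 50 bp outside the genes and 244.4 beyond 5000 bp; replicate 1 has 70.2 and 275.7 there, and replicate 2 has 35.1 and 297.6. The left cluster has 63.9 and 401.6 in the pooled list.

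Density was also lower in windows with more piRNA genes. Windows of 10 kb with no piRNA gene held 363.9 pooled summits per Mb (83 windows), those with 1 to 10 genes 257.0, those with 11 to 20 genes 158.7, those with 21 to 40 genes 109.6 and those with 41 or more 38.9 (126 windows). Of the 126 most crowded windows, all but 1 lay in the right cluster, and 25 held any pooled summit. Of the 83 windows without a piRNA gene, 53 lay in the left cluster, so the classes draw on the clusters unequally. Within the right cluster alone, pooled density went from 260.0 with no piRNA gene to 39.2 with 41 or more. Within the left cluster it went from 422.6 with none to 135.6 with 21 to 40. In replicate 1 the densities of the same 5 classes were 349.4, 257.0, 196.7, 155.6 and 61.9 summits per Mb. In replicate 2 they were 365.1, 246.3, 175.0, 131.8 and 65.9.

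**Figure D3:**
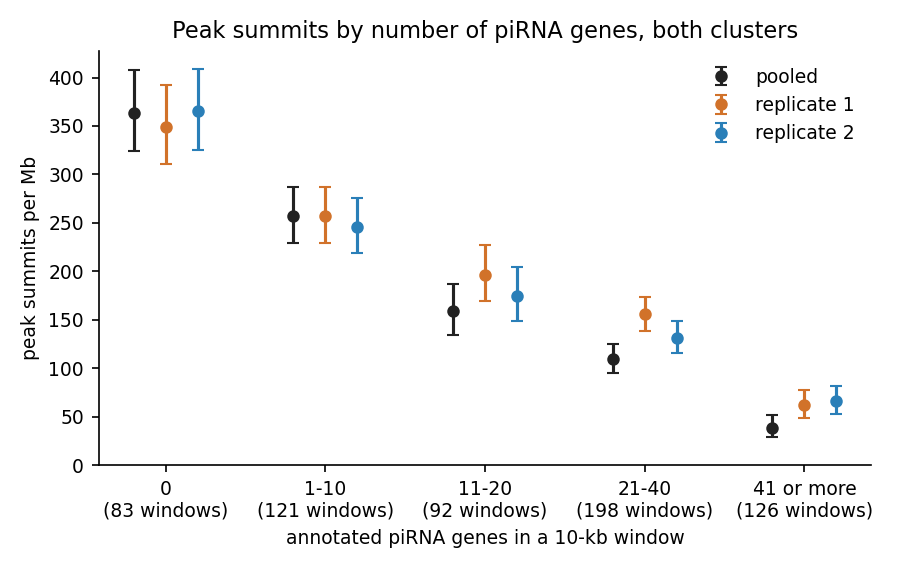
Peak summits per Mb (y axis) in 10-kb windows of both clusters, grouped by the number of annotated piRNA genes in the window (x axis), for the pooled list and each replicate list; bars are 95% exact Poisson intervals. Pooled density is 363.9 summits per Mb in windows without a piRNA gene and 38.9 in windows with 41 or more.

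Base composition and gene structure changed along with the piRNA genes. Within the clusters, bases near a piRNA gene had a GC content of 29.9%, against 36.1% for those farther away, and 9.77% of them were coding exon, against 24.5%. Summits were at GC-rich places in both regions: stretches reaching 50 bp to either side of members averaged 42.2% GC (33.0% over all bases of the clusters), and those around summits of the rest averaged 41.6% (35.5% over all bases). Over both clusters the near-to-away ratio stayed below 1 within each class of GC content. It was 0.194 below 30% GC, 0.432 from 30 to 35%, 0.429 from 35 to 40% and 0.547 at 40% or more. The upper bounds were 0.314, 0.637, 0.606 and 0.685, in that order. Below 30% GC the replicates were less extreme, with 0.477 (0.347 to 0.654) in replicate 1 and 0.399 (0.278 to 0.571) in replicate 2. Weighted to the GC content of the summits it was 0.471, against 0.228 unweighted, in a calculation added after the values were seen. The weighted ratio was 0.611 in replicate 1 and 0.524 in replicate 2. It was closer to 1 within each cluster, at 0.533 in the left and 0.577 in the right cluster of the pooled list. Replicate 1 had 0.6925 (left) and 0.686 (right), and replicate 2 had 0.597 and 0.609. Within single clusters the unweighted pooled ratio of each GC class was also closer to 1 than over both clusters. In the left cluster it ran from 0.305 below 30% GC to 0.574 at 40% or more. In the right cluster it ran from 0.222 to 0.627 between the same classes. Within single clusters the pooled intervals of all GC classes lay below 1, but some replicate intervals included it. An example was 0.895 (0.640 to 1.23) at 40% GC or more in replicate 1's left cluster. By location, the unweighted ratio over both clusters was 0.205 (0.156 to 0.265) among intergenic bases, 0.291 (0.212 to 0.394) in introns and 0.405 (0.300 to 0.537) in coding exons. The intergenic ratio had 0.320 as its replicate 1 value and 0.323 as its replicate 2 value. The part that GC content has in the density difference was not tested beyond these values.

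**Figure D4:**
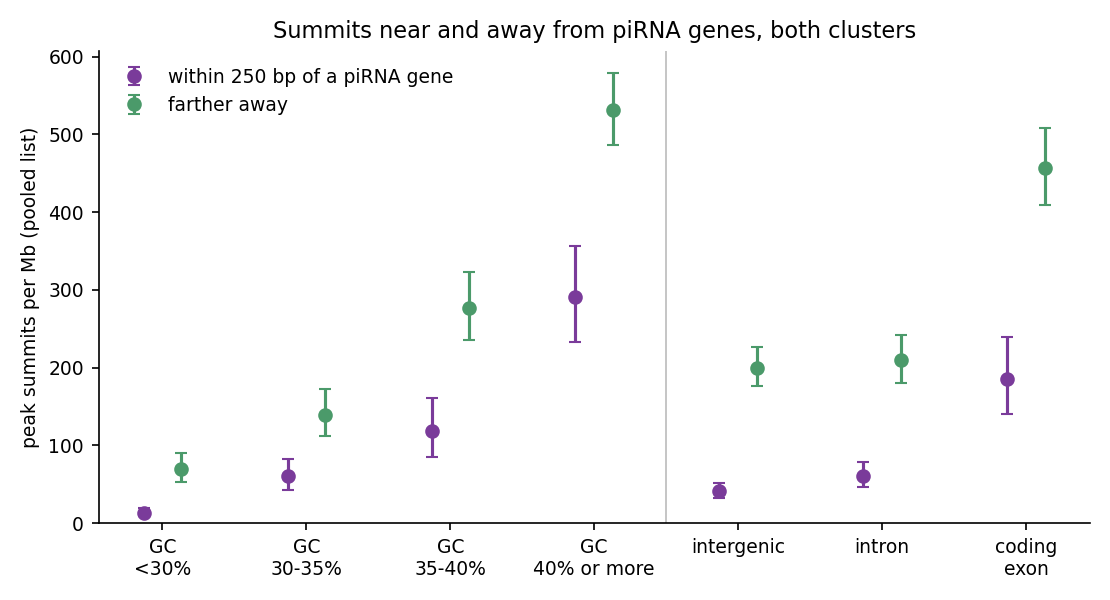
Pooled peak summits per Mb (y axis) within 250 bp of a piRNA gene and farther away, over both clusters, in 4 classes of GC content of the surrounding bases (50 bp to either side) and in 3 kinds of location (x axis); bars are 95% exact Poisson intervals. The near value is below the far one in all 7 classes, for example 290.4 and 531.4 summits per Mb at 40% GC or more. Both clusters are merged here. In each GC class the ratio of near to far is closer to 1 in either cluster alone. At 40% GC or more it is 0.574 in the left and 0.627 in the right cluster, against 0.547 merged.

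The right cluster was also below the rest within each GC class. It had 0.166 times the density of the rest at places below 30% GC, 0.306 times from 30 to 35%, 0.504 times from 35 to 40% and 0.670 times (0.586 to 0.764) at 40% or more, in the pooled list. The deficit was smaller in the replicates, at 0.431, 0.446, 0.505 and 0.840 times (0.741 to 0.949) in replicate 1 and 0.319, 0.405, 0.536 and 0.744 times (0.652 to 0.846) in replicate 2. Leaving out bases near piRNA genes, the pooled ratios became 0.426, 0.455, 0.663 and 0.757 (0.651 to 0.876). In replicate 1 this left 0.680 (0.433 to 1.02) below 30% GC and 0.934 (0.811 to 1.07) at 40% or more, where a difference from the rest was not detectable. In replicate 2 it left 0.589 (0.364 to 0.907) and 0.829 (0.715 to 0.957). The left cluster differed from the rest in a direction that varied with GC class and list. Below 30% GC its ratio was 0.697 (0.517 to 0.927) in the pooled list, 1.07 (0.839 to 1.36) in replicate 1 and 0.849 (0.651 to 1.096) in replicate 2. At 40% GC or more it was 1.16 (1.03 to 1.297) in the pooled list, 1.12 (0.989 to 1.26) in replicate 1 and 1.13 (1.004 to 1.28) in replicate 2. These were above 1 in each list, though replicate 1's interval included 1. Repeats masked in the reference made up 45.4% of the right cluster, 35.4% of the left cluster and 36.0% of the rest, and how well reads could be placed there was not tested.

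Seen from the piRNA genes, a summit was rare. Of the 14204 piRNA genes of the clusters, 302 (2.13%, 1.90 to 2.38%) had a pooled summit within 250 bp, against 2.70% of the 15363 piRNA genes on all 6 chromosomes, most of which are these same genes. The share was 4.33% in the left cluster, 1.58% in the right cluster and 6.08% (31 of 510) on the rest of chromosome IV. On the other chromosomes it was between 9.90% on V and 17.4% on II, from 78 to 202 genes each. In replicate 1 the share in the clusters was 4.01% and in replicate 2 it was 2.99%. With and without the Ruby motif, this share differed by less than the counting error: 2.10% (1.74 to 2.54%) of the 4944 cluster genes with CTGTTTCA in the 60 bases upstream had a pooled summit, and 2.14% (1.86 to 2.45%) of the 9260 without it.

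The motif itself was rare at members. CTGTTTCA was searched for on both strands, and its sites numbered 4938 in the clusters (796.5 per Mb) and 924 on the rest of chromosome IV (81.8 per Mb). Of the windows reaching 50 bp to either side of the 1025 summits, 18 held it (1.76%, 1.11 to 2.76%), against 7.36% of all windows of that length in the clusters, a ratio of 0.239. On the rest of the chromosome the shares were 0.381% of summits and 0.760% of all windows. The 18 members had signals between 26.1 and 68.5, with a median of 31.5, and 10 of them were within 250 bp of a piRNA gene. The highest, at 68.5, was in an intron of pgl-1, which encodes a core protein of germline P granules. The share of members with the motif was 2.48% in replicate 1 and 2.98% in replicate 2.

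Where a member did lie near a piRNA gene, its summit was more often downstream than upstream of the 5′ end of the mature RNA. Of the 196 near members, 67 (34.2%, 27.9 to 41.1%) were upstream, against 47.1% of bases within 250 bp of a piRNA gene, counted at every 50th base. The share upstream was 42.1% (36.7 to 47.7%) of 304 in replicate 1. It was 102 of 255 in replicate 2 (34.2 to 46.1%). Replicate 1's interval includes the share of bases, so the departure was not detectable there at this number of summits.

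The strength of the peaks differed little between the clusters and the rest. The signal is the authors' own measure for each peak, used here only within a list. Its median over the pooled list was 35.1 in the left cluster, 35.8 in the right cluster and 34.5 on the rest of chromosome IV. The 30000 peaks of that list ran from 25.9 to 571, with a median of 34.9. Among the 7500 highest peaks of the pooled list, which are 25% of it, were 26.4% of the members (23.8 to 29.2%) and 23.2% of the peaks on the rest (21.8 to 24.7%). The medians were 18.9 for the clusters and 19.0 for the rest in replicate 1, and 22.0 and 21.7 in replicate 2, so the order was not the same in both.

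Among the members, those near piRNA genes had somewhat lower signal. Their median was 33.5, against 35.9 for the members farther away, and 17.9% of them (13.1 to 23.8%) were among those 7500 peaks, against 28.5% (25.5 to 31.6%). The medians were 17.8 and 19.3 in replicate 1, and 20.95 and 22.4 in replicate 2. Of the 196 near members, 31 (15.8%, 11.4 to 21.6%) had a summit of both replicate lists within 100 bp, and of the 829 others 198 did (23.9%, 21.1 to 26.9%), intervals that overlap slightly. Over all 1025 members, 515 had a summit of replicate 1 within 100 bp, 536 one of replicate 2, 229 (22.3%, 19.9 to 24.99%) both, and 203 neither; on the rest of chromosome IV the share with both was 19.7%.

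The 12 strongest members at piRNA genes alone, 6 in each cluster with no other short RNA gene within 250 bp, had pooled signals between 47.2 and 66.1. The strongest, 136 bp upstream of 21ur-1572 in the right cluster, had its summit in a coding exon of Y57G11C.5, with a signal of 66.1 in the pooled list, 20.9 in replicate 1 (rank 11171) and 51.1 in replicate 2 (rank 402). Next in the right cluster was the summit 231 bp from 21ur-4709, in an intergenic stretch, with a pooled signal of 58.6, against 16.2 in replicate 1 and 37.2 in replicate 2. By 21ur-2646 the summit had a pooled signal of 55.8 and lay 64 bp from the 5′ end of Y57G11B.6. The strongest in the left cluster was by 21ur-6059 in a coding exon of unc-44, the worm's ankyrin, with a pooled signal of 53.2, 36.2 in replicate 1 and no summit of replicate 2 within 100 bp. Of the left cluster's others, the one by 21ur-13214 had 48.1 in the pooled list and 36.7 in replicate 1, again with none in replicate 2, and the one by 21ur-7827 had 51.5, with 23.7 in replicate 1 and 27.4 in replicate 2. The summits by 21ur-6491, 21ur-8015 and 21ur-7159 in the left cluster and by 21ur-941, 21ur-15364 and 21ur-12188 in the right cluster had pooled signals between 47.2 and 53.9. Of the 12 summits, 9 were inside a protein-coding gene as well.

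Only 6 members, 3 in each cluster, passed the threshold that the authors set on the irreproducible discovery rate (IDR), a measure of how well peak ranks hold between lists. That is 0.585% of members (0.269 to 1.27%), against 0.920% on the rest of chromosome IV and 0.983% of the whole pooled list. The other members are peaks that did not pass it; over all members the deposited −log10 q had a median of 0.212 and reached 2.51. The bases of each of the 6 peaks up to 50 bp to either side of the summit, on the plus strand from the same reference, show what the strongest members share and where they differ, with any annotated tRNA gene in capitals.
upstream of Y17G9B.5 (chrIV:4750028-4750128, plus strand): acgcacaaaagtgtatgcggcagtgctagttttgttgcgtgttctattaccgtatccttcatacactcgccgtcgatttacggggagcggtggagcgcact
F02H6.t1 (chrIV:14225031-14225131, plus strand): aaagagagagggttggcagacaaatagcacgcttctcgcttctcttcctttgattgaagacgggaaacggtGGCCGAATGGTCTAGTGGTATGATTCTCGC
intergenic by K08F11.1 (chrIV:4727990-4728090, plus strand): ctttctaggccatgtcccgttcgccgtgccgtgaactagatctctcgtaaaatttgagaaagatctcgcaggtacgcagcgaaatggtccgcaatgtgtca
intron of zip-7 (chrIV:16503723-16503823, plus strand): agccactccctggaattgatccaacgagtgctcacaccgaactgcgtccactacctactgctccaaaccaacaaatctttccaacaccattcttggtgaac
intron of Y105C5A.15 (chrIV:15693418-15693518, plus strand): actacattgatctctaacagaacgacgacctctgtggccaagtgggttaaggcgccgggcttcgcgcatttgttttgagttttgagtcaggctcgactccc
C09B9.t1 (chrIV:5038881-5038981, plus strand): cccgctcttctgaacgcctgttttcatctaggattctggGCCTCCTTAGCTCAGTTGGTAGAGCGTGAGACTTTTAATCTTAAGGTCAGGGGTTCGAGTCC
Of the 6 windows, 2 reached into an annotated tRNA gene, and none held CTGTTTCA. Sequences resembling tRNA genes but not annotated as such were not searched for. Their GC content was between 49.5 and 52.5%.

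The highest member was 162 bp upstream of Y17G9B.5, with its summit at 4750078 and a signal of 143.6 in the pooled list, 69.7 in replicate 1 and 71.1 in replicate 2. It ranked 48 in the pooled list, 45 in replicate 1 and 106 in replicate 2, and the nearest piRNA gene was 17626 bp away. Another of the 25 highest members, in a coding exon of rpl-20, which encodes a protein of the large ribosomal subunit, lay 617 bp from it with a signal of 71.9. The second was at F02H6.t1, a tRNA-Pro gene, with a signal of 123.8 in the pooled list, 75.2 in replicate 1 and 53.9 in replicate 2, and it was also 93 bp from 21ur-3160. This was the highest signal of any member within 250 bp of a piRNA gene.

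The third was intergenic, at 4728040, 3178 bp from the 5′ end of K08F11.1 and 77 bp from an annotated pseudogene, with a signal of 106.3 in the pooled list, 37.8 in replicate 1 and 76.0 in replicate 2. A neighbouring member 208 bp away had a signal of 77.1. In introns were the fourth, in zip-7, which encodes a basic leucine zipper factor, with 104.6 in the pooled list, 49.7 in replicate 1 and 55.1 in replicate 2, and the fifth, in Y105C5A.15, with 102.3, 50.1 and 56.8. The sixth was inside C09B9.t1, a tRNA-Lys gene in an intron of C09B9.1. Its signal of 93.7 in the pooled list rested on replicate 2, where it was 78.4 (rank 77), against 21.1 in replicate 1 (rank 10844).

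Several of the strong members lay within 250 bp of genes for other short RNAs, where 4.59% of all 1025 members lay. Of the 25 members with the highest signal, from 67.2 to 143.6, 9 were within 250 bp of a tRNA gene and 1 of a snoRNA gene, Y67A10A.14, with 74.1. The tRNA genes besides F02H6.t1 and C09B9.t1 were F13G11.t1 (83.9), Y65A5A.t2 (83.2), C43G2.t1 (81.9), Y73B6BL.t1 (80.4), B0350.t1 (79.0), Y43D4A.t1 (77.0) and Y105C5B.t1 (67.5), in pooled signal. Of the other 15, 7 had their summit in a coding exon. These exons belonged to ssq-2 (78.6), csn-5, a subunit of the COP9 signalosome (76.5), gdi-1, a regulator of Rab GTPases (76.2), htp-1, a protein of the meiotic chromosome axis (74.3), rpl-20, the collagen gene col-111 (70.2) and bli-6 (67.2). One summit was in an untranslated exon of eif-1.A, which encodes a translation initiation factor (77.3), and one was intergenic near usp-4 (71.8).

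**Figure D5:**
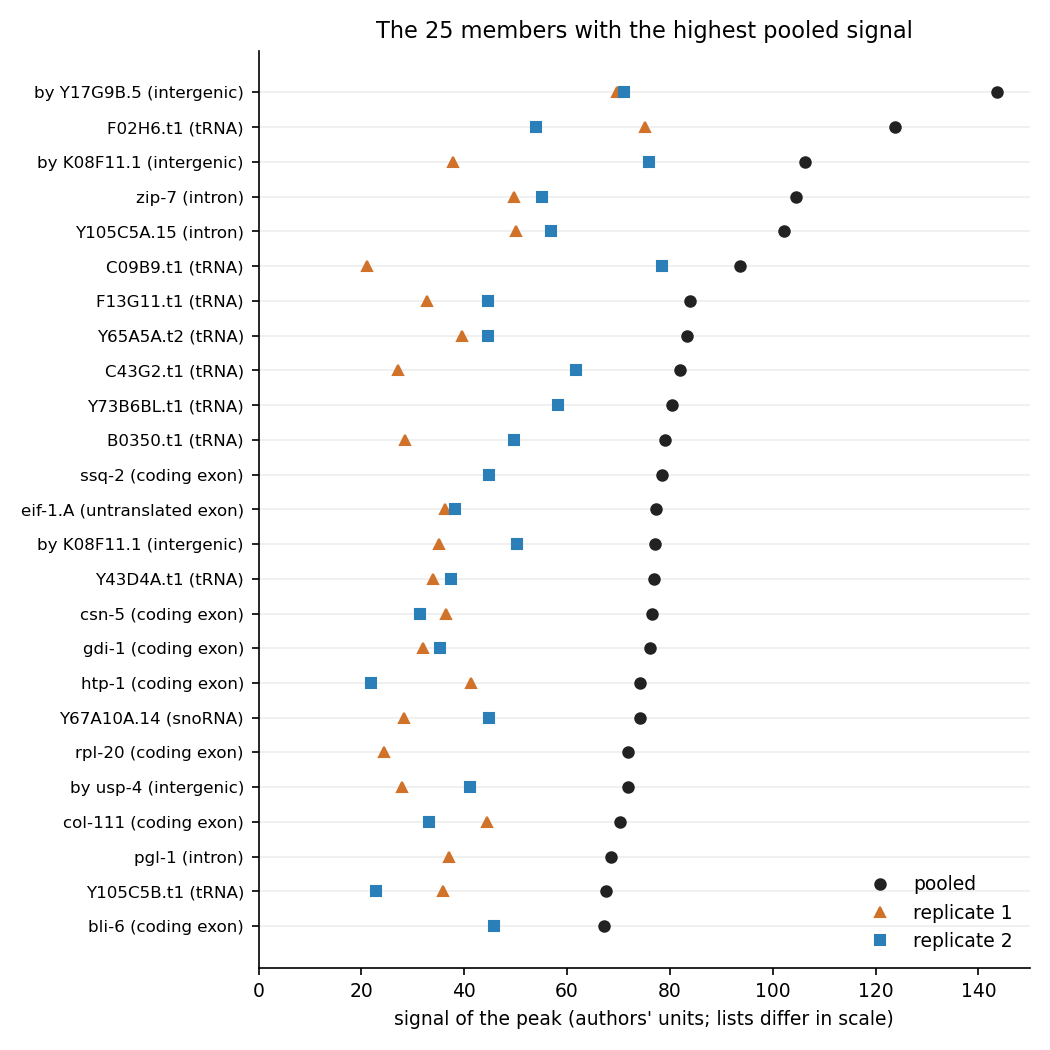
Signal of the 25 members with the highest pooled signal (x axis, in the authors' units), each on its own line named by the short RNA gene within 250 bp, the protein-coding gene at the summit or the nearest protein-coding 5′ end. Circles are the pooled list, triangles replicate 1 and squares replicate 2, drawn where the replicate had a summit within 100 bp, as 20 of the 25 had in both.

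The replicates ranked these members differently. In 9 of the 20 seen in both, the ranks differed by more than 5-fold. At htp-1 the signal was 41.2 in replicate 1 (rank 382) and 22.0 in replicate 2 (rank 14942). C43G2.t1 had 27.1 in replicate 1 (rank 3760) and 61.8 in replicate 2 (rank 172). A single member's rank is thus uncertain. The densities above rest on many summits, but most of these did not pass the authors' threshold. Their intervals leave out the spread between lists. In the right cluster both replicate densities, 139.7 and 124.3 summits per Mb, lay above the pooled interval of 96.0 to 117.3.

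Over the whole set, 47 members (4.59%, 3.47 to 6.04%) were within 250 bp of a tRNA, snRNA, snoRNA, miRNA or spliced-leader gene, against 0.896% of bases, 5.12 times the share. Their median signal was 52.5, and 63.8% of them were among the 7500 highest peaks of the pooled list. On the rest of chromosome IV the excess was 3.66 times, from 75 summits, with a median signal of 47.7. In replicate 1 the excess in the clusters was 4.49 times, and in replicate 2 it was 4.95 times.

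tRNA genes were the largest class of other short RNA genes in the clusters. Within 250 bp of a pooled summit were 23 of the 41 tRNA genes of the clusters (56.1%, 41.04 to 70.1%), 23 of the 30 on the rest of chromosome IV (76.7%, 59.1 to 88.2%) and 77.5% of all 612 on the 6 chromosomes. The intervals of the clusters and the rest overlap, and with so few genes this comparison does not settle whether they differ. The share on all 6 chromosomes lay above the interval of the clusters, but it covers the X chromosome as well as the autosomes. The counts were 24 and 22 in replicate 1, and 26 and 21 in replicate 2. Of the 13 cluster tRNA genes within 250 bp of a piRNA gene 6 had a summit, and of the 28 farther away 17 did, in the pooled list; in replicate 2 these were 8 and 18. Signals at the 23 ran from 31.2 to 123.8, with a median of 59.8. Of the other classes, a pooled summit lay within 250 bp of 6 of 13 snRNA genes in the clusters and 10 of 23 on the rest of chromosome IV, and of 9 of 18 snoRNA genes in the clusters and 25 of 41 on the rest. For miRNA genes it was 3 of 19 in the clusters and 11 of 31 on the rest, and for spliced-leader genes 3 of 4 and 0 of 2. These counts are small and moved between the replicates, with 9 snRNA and 2 spliced-leader genes of the clusters in replicate 1, and 5 and 1 in replicate 2.

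Protein-coding genes took up much of the rest. Coding exons held 38.8% of members and 17.0% of the bases, introns 23.5% and 29.3%, and intergenic stretches 32.4% and 50.6%. Members within 500 bp of the 5′ end of a protein-coding gene made up 22.8% (20.4 to 25.5%), 1.59 times their share of the bases, against 1.23 times on the rest of chromosome IV. Protein-coding genes were fewer in the clusters, at 124.1 per Mb in the right cluster, 192.8 in the left cluster and 207.2 in the rest.

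The protein-coding genes of the piRNA pathway were looked up as a list of 25, of which 24 were matched by name and none of these lies in the clusters. Of the 24, 19 had a pooled summit within 2000 bp of their 5′ end, against 69.6% of all 19973 protein-coding genes. The count was 23 in replicate 1 and 17 in replicate 2. Among the genes for the transcription of piRNAs, snpc-4, prde-1, tofu-4, snpc-1.1 and snpc-1.3 had a pooled summit, with signals of 27.0, 36.2, 26.8, 39.4 and 29.3, while tofu-5, attf-6, unc-130 and snpc-1.2 had no pooled summit within 2000 bp. Several of these calls changed between the lists. tofu-5 had a summit within 2000 bp in both replicates, and unc-130 and snpc-1.2 had one in replicate 1. snpc-4 had none in replicate 2, and attf-6 had none in any list.

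For the processing of the precursors, the highest pooled signals were at pid-3 (55.2), erh-2 (51.2) and tofu-6 (48.8), which encode subunits of the PETISCO complex, and at slfl-3 (51.8), which encodes a subunit of the PUCH nuclease. Replicate 1 had 15.99, 16.21, 17.15 and 16.37 at pid-3, erh-2, tofu-6 and slfl-3, near that list's lowest of 14.4. Replicate 2 had 34.65, 28.65, 23.07 and 23.75 there. In the pooled list the cap-binding gene ife-3 had 46.4, tofu-1 46.3, the trimmer gene parn-1 46.1 and the methyltransferase gene henn-1 46.6. There tost-1 (28.7) and pid-1 (27.2) were low, and tofu-2 had no summit within 2000 bp. The replicates differed at tost-1: it had 28.2 (rank 3101) in replicate 1, above pid-3, erh-2, tofu-6 and slfl-3. In replicate 2 tost-1 had no summit within 2000 bp. Of the Argonaute genes, prg-1 had 47.0 (rank 5040), csr-1 27.5, hrde-1 27.2 and wago-1 26.1 in the pooled list. Their order changed in replicate 1, where csr-1 had 39.6 (rank 492), at a summit 1581 bp from its 5′ end. There prg-1 had 31.3 (rank 1814), wago-1 19.9 and hrde-1 18.7. Replicate 2 had 45.6 (rank 703) at prg-1, 28.1 at hrde-1, 23.2 at wago-1 and 21.8 at csr-1. F57A8.1 itself had a pooled summit 104 bp upstream of its 5′ end with a signal of 50.01 (rank 3793), against 17.1 in replicate 1 and 33.5 in replicate 2. None of these signals was among the 295 that passed the authors' threshold. The transgene of the strain also carries F57A8.1, and whether reads from it add to the summit at that gene was not tested.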

How the data were processed

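Peak positions were analysed from 4 lists deposited in ce11 coordinates, 1 for each replicate, 1 for both replicates pooled and 1 after an IDR threshold. A control was used in calling them, per the file descriptions deposited by the authors. Which peak caller, aligner, filters and scaling were used is not given in the sources. Each peak carries the authors' signal value and a deposited −log10 q, and read depth is unknown. Replicate and pooled lists hold 30000 peaks each, so their total does not measure binding.

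A summit was the deposited start plus the deposited offset. Genes came from Ensembl release 115 (WBcel235), sequences from RefSeq. Shares of summits were set beside shares of every base of the same region. Intervals are 95% Wilson for shares and exact Poisson for densities, with exact binomial intervals for density ratios, and cover counting error only. No p-value was computed. "Near" meant within 250 bp unless stated. Code ran in Python 3.11.15 with numpy 2.4.6, pandas 2.3.3, SciPy 1.17.1 and matplotlib 3.10.9 and was tested on simulated positions.

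Genes named were the nearest ones to the 25 highest members, to the 6 highest in each cluster near a piRNA gene only, to the thresholded members, and those of a 25-gene pathway list, with F57A8.1. The members and lists were chosen with earlier results of these data known. The labels do not say that the replicates came from separate cultures.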

Additional observations from a re-analysis of the deposited data

How the results depend on the processing

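Of 48 values recomputed under another setting, 15 moved by less than 1 SD between the replicates or stayed within the comparable limit, 32 moved further and 1 reversed. The density ratio of clusters to rest (0.593) was 0.641 to 0.670 in the single replicates, 0.639 in the upper 50% of the list by signal, 0.543 with bounds moved inward by 0.25 Mb and 0.667 outward. The ratio of median signals, 1.02, was 0.995 with replicate 1's list alone, where it reversed, 1.01 with replicate 2's list alone and 1.01 in the upper 50% of the list. The near-to-away ratio (0.228) was 0.289 to 0.339 in single replicates, 0.181 in the upper 50%, 0.157 within 100 bp and 0.311 within 500 bp; among settings added after seeing the data it was 0.291 in introns, 0.394 in exons and 0.471 weighted to GC content. The share of piRNA genes with a summit, 2.13%, was 2.99 to 4.01% in single replicates, 0.873% in the upper 50%, 0.584% within 100 bp and 5.58% within 500 bp. The excess at other short RNA genes (5.12) was 4.49 to 4.95 in single replicates and 7.77 in the upper 50%, and that at protein-coding 5′ ends (1.59) was 1.41 to 1.48 in single replicates. Thresholded members numbered 3 among the stronger 50% of the thresholded peaks. Agreement of both replicates was 38.0% in the upper 50%, 12.7% within 50 bp and 36.3% within 200 bp. The motif ratio (0.239) was 0.337 to 0.405 in single replicates, 0.128 in the upper 50% and 0.542 for the core TGTTTC. Pathway genes with a summit numbered 17 to 23 in single replicates and 11 in the upper 50%. The cause of these shifts was not tested. Of 45 ranks of the 25 highest members in a replicate list, 11 were within 1.5-fold of the pooled rank.

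No paired analysis was possible because the samples form 1 group, so the replicate numbers pair nothing. Pooled and replicate lists share reads, and the pooled values are not independent of the replicate ones. Read depth, the control and how well reads align in repeats limit what a missing summit shows.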
